A study of Mus musculus with 8 samples.

Results

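The Eph receptors and ephrins of the intestinal crypt were described in RNA of isolated mouse crypts, as 10 genes chosen by name among the 55114 genes counted. The genes were Ephb2, Ephb3, Ephb4, Ephb6, Epha1, Epha2, Epha4 and Epha7, which encode receptors, and Efnb1 and Efnb2, which encode ligands. The choice was made with the difference between genotypes in view, so the values of the knockout against the control are given here as a description. The mice were C57BL/6 animals of 8 weeks, 4 with a constitutive deletion of Mex3a (KO) and 4 control littermates (WT), with 1 sequenced library for each mouse. A constitutive deletion acts in every cell of the animal and not in the epithelium alone. No further allele, agent or treatment is given in the labels.

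Eph receptors are receptor tyrosine kinases that bind ephrins on the surface of a neighbouring cell, and both cells can receive a signal from the contact. The outcome is often repulsion, which keeps cell populations apart. In the intestine, Ephb2 and Ephb3 are known targets of WNT signalling with high levels at the crypt base, while Efnb1 is high in the differentiating cells towards the crypt mouth. The opposed gradients help to order stem cells, Paneth cells and differentiated cells along the crypt. Mex3a encodes an RNA-binding protein of intestinal stem cells.

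Between 20324184 and 24726221 reads per WT mouse and between 23489180 and 30654105 per KO mouse were counted on genes. Mex3a had 236 to 328 counts in WT and 6 to 28 in KO, and its log2 fold change was -4.45 (SE 0.43), with an adjusted p of 0.0310 by edgeR's quasi-likelihood test. This adjusted p was above 0.05 in 6 of the 8 fits that left out 1 mouse, named with their values in the closing section, and 0.126 when replicate number was a block. In both genotypes, mice 1 and 2 carried Y-linked transcripts and mice 3 and 4 carried Xist. The libraries were epithelial, and the summed FPKM (fragments per kilobase of gene, scaled to library size) of 7 epithelial markers was 2920 to 3210 in WT and 3360 to 4050 in KO, without overlap. All 7 were higher in KO, 3 with an unadjusted p below 0.05, where 8.38% of all genes were, 5.33% higher and 3.05% lower. The 3 were Vil1, Krt8 and Krt20, and Krt8 gave the largest part of the epithelial sum (mean 1575 in WT and 1909 in KO). The log2 fold changes of Cdh1, Epcam, Cdx2 and Cdx1 were 0.0021, 0.067, 0.087 and 0.10. Markers of several cell types also differed between the genotypes. All 6 crypt base stem markers were lower in KO (3 at that threshold), with summed FPKM of 1320 to 1590 in WT and 979 to 1240 in KO, most of it from Olfm4 (mean 1305 in WT and 1034 in KO). All 6 Paneth markers were lower (22800 to 73400 against 11100 to 40400, 0 at that threshold). All 6 villus enterocyte markers were higher (638 to 2110 against 970 to 4550, 2 at that threshold), as were all 6 T cell markers (4.02 to 12.5 against 7.80 to 27.3, 4 at that threshold). None of these markers passed the adjusted threshold, which 0.00621% of all genes did. Markers of other cells were low and overlapped between the genotypes, with sums of 0.533 to 2.16 FPKM for fibroblasts and muscle, 17.8 to 26.8 for B and myeloid cells and 0.490 to 0.836 for nerve and glia. In bulk RNA, fewer cells of a type and less RNA per cell cannot be told apart, which holds for every gene below.

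Levels were compared between genes as FPKM, which accounts for gene length. Ephb4 was the highest of the 10 genes, with a mean of 53.6 FPKM in WT (SD 2.71, n = 4). Efnb1 followed with 32.0 (SD 2.74) and Ephb2 with 13.1 (SD 1.11). Epha1 had 10.7 FPKM (SD 1.59), Epha2 9.83 (SD 1.81), Ephb3 9.16 (SD 1.71) and Efnb2 7.50 (SD 1.07), and the WT mice of each of these 4 genes overlapped with those of its neighbour in the order. Epha4 was lower at 1.08 FPKM (SD 0.18). Epha7 at 0.132 (SD 0.054) and Ephb6 at 0.108 (SD 0.078) were close to the limit of detection, and their WT mice overlapped. In KO the order was kept at both ends, but Epha2 moved from rank 5 to rank 3 with 17.8 FPKM (SD 3.73).

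**Figure D1:**
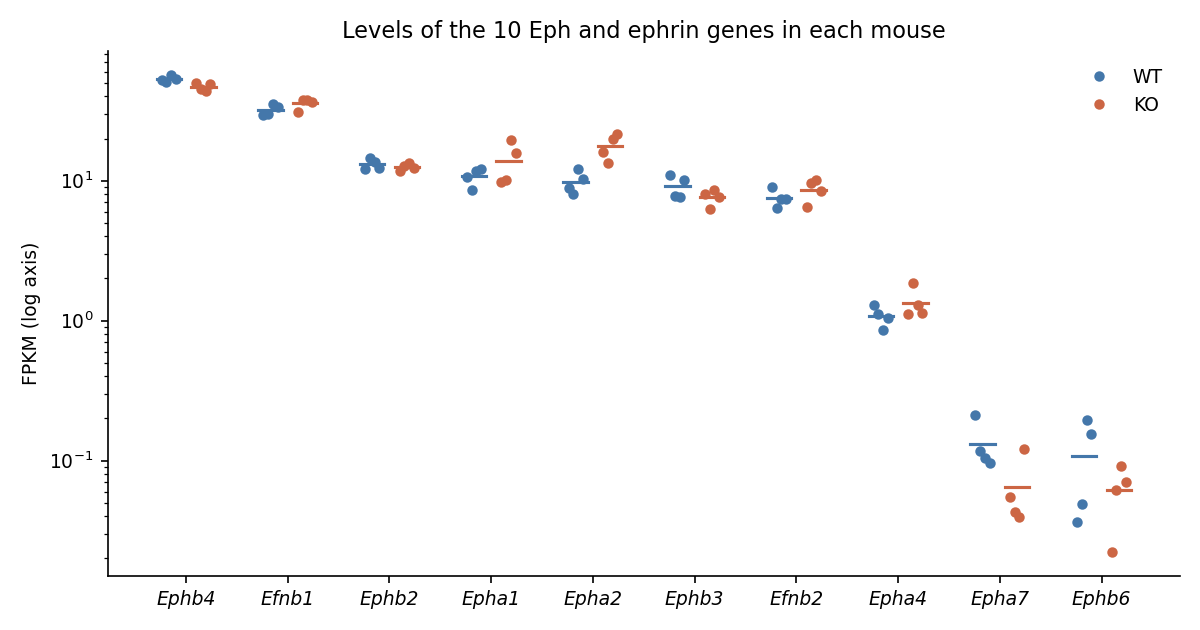
FPKM of the 10 genes on a log axis, with a point for each mouse (WT blue, KO orange) and a line at the mean of 4 mice. Ephb4 was highest in every mouse, Epha7 and Ephb6 lay below 0.22 FPKM, and the KO mice lay apart from the WT mice in Epha2 (above) and Ephb4 (below).

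The rank of Ephb2 depended on the gene length used. The deposited FPKM divide by the length of all exons of a gene, 12608 bases for Ephb2, whereas its CCDS transcripts, those with a consensus coding sequence, measure 4804 and 10902 bases in the GENCODE annotation. The 2 transcripts differ mainly in the 3'UTR. Rescaled to the shortest CCDS transcript of each gene, the WT mean of Ephb2 was 34.5 on the same scale, next to Efnb1 with 33.9, and Ephb3 moved from rank 6 to rank 4 with 14.5. The length ratio was largest for Epha7 (3.43) and Ephb2 (2.62) and 1.06 for Efnb1. A comparison of receptor with ligand level therefore rests on the transcript assumed, while the comparison of genotypes within a gene does not use the length.

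**Figure D2:**
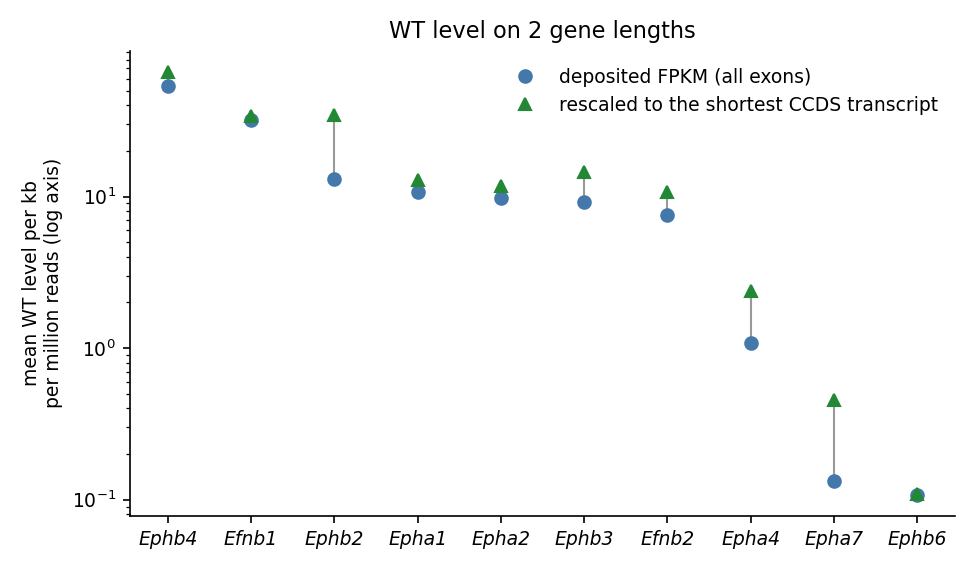
Mean WT level of each gene per kilobase, scaled to library size, on a log axis, as deposited with all exons (circles) and rescaled to the shortest CCDS transcript (triangles). Ephb2 moved from 13.1 to 34.5, level with Efnb1, while Efnb1 itself moved from 32.0 to 33.9.

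Promoters were read from RefSeq, where all 10 genes matched, as the 250 bases before and 50 after each start site (GRCm38.p6). They are shown because Klf4, of a family of zinc finger factors that bind GC-rich sites, was a gene of interest of the study, and because WNT signalling acts through TCF/LEF factors. The letters GGGNGTGG, a KLF-type site, were found on either strand in 5 of the 10 genes, in Efnb1, Epha2, Epha4, Ephb2 and Ephb3, against 17.6% of all 32851 promoters and 26.3% of the 13716 promoters within the GC range of these genes (54.7% to 76.3%). The windows of the EphB receptors, of Efnb1 and of Epha2 are given 5′ to 3′ on the strand of the gene, with the matching letters in capitals.
Ephb2, 106 bases before the start (chr4:136836103-136836126, minus strand): catgactcGGGCGTGGtgcaaccc
Ephb2, 39 bases before the start (chr4:136836036-136836059, minus strand), letters on the opposite strand: ggctccccCCACGCCCgcggctca
Ephb3, 96 bases before the start (chr16:21204691-21204714, plus strand): gcctctggGGGCGTGGcctgagtg
Efnb1, 50 bases before the start (chrX:99136003-99136026, plus strand): tgctctgtGGGCGTGGtatggggc
Epha2, 47 bases before the start (chr4:141301166-141301189, plus strand): attcctgaGGGCGTGGtttcggtg
Epha4 held 2 matches, which are not printed. Letters in the same orientation as the gene were identical in Ephb2, Ephb3, Efnb1 and Epha2. A link of these letters with the differences between genotypes was not tested. The TCF/LEF letters CTTTGNN, in which each N was A or T, were found on either strand in Epha2 alone, against 16.9% of all promoters, 209 bases before the start.
Epha2, TCF/LEF letters (chr4:141301004-141301026, plus strand): tggtggcgCTTTGAAatgagaaa
No window held the AP-1 letters TGANTCA (7.80% of all promoters), and only Efnb2 held TATAAA (13.6%), on the opposite strand. The shares of the TCF/LEF, AP-1 and TATA letters are over all promoters, whose median GC was 52.7%. They were not computed within the higher GC range of these genes, so the absence of such letters cannot be judged against them. A match describes letters in a window of 300 bases and not a bound site.

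Ephb2 (ENSMUSG00000028664, chromosome 4, 136647539 to 136835988, minus strand in GRCm38), an EphB receptor with a known crypt gradient, was close to equal in the genotypes. Its counts were 3381, 3947, 3495 and 3734 in WT mice 1 to 4 and 3531, 4120, 3914 and 4688 in KO mice 1 to 4. As counts scaled to library size by TMM factors (CPM) it was 166.8 ± 13.6 in WT and 158.3 ± 8.80 in KO (SD, n = 4 each), and the genotypes overlapped. The KO to WT ratio of same-numbered mice was 0.949, 0.867, 0.992 and 0.999, below 1 in all 4 pairs. No source says that a mouse number marks a litter, here or for the genes below. The log2 fold change was -0.075 (SE 0.079), and it stayed between -0.11 and -0.024 over 15 alternative fits, nearest to 0 without WT mouse 2 (-0.024) and KO mouse 1 (-0.045). Among the 10 genes, Ephb2 and Ephb4 varied least between mice, with a coefficient of variation of 8.14% in WT and 5.56% in KO for Ephb2.

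Ephb3 (ENSMUSG00000005958, chromosome 16, 21204755 to 21223305, plus strand), the receptor known for holding Paneth cells at the crypt base, was lower in 3 of 4 KO mice than in the WT mouse of the same number. It had 11.1, 7.83, 7.59 and 10.2 FPKM in WT mice 1 to 4 and 7.99, 6.23, 8.59 and 7.63 in KO mice 1 to 4. WT mice 1 and 4 were high and the other 6 mice overlapped, and the difference on the log2 scale was -0.28 (SE 0.15). It was -0.17 without WT mouse 1, and Ephb3 had an unadjusted p under 0.05 without WT mouse 2 or WT mouse 3. The summed FPKM of Paneth markers was 73400, 22800, 30800 and 46600 in WT mice 1 to 4 and 21200, 11100, 31300 and 40400 in KO mice 1 to 4. The mice with the highest (WT 1), second highest (WT 4) and lowest (KO 2) Paneth sums were also those with the highest, second highest and lowest Ephb3. The order did not hold throughout, since KO 4 had the third highest sum with 7.63 FPKM of Ephb3, and KO 1 the second lowest sum with 7.99. The part of Paneth cell content in the Ephb3 difference was not tested.

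Efnb1 (ENSMUSG00000031217, chromosome X, 99136130 to 99148991, plus strand), the ligand with the gradient opposed to that of the EphB receptors, was higher in each KO mouse than in the WT mouse of the same number, by 1.03, 1.25, 1.08 and 1.09 times in CPM. It had 29.4, 29.9, 35.1 and 33.5 FPKM in WT mice 1 to 4 and 30.9, 37.5, 37.7 and 36.7 in KO mice 1 to 4. The genotypes overlapped because KO mouse 1 lay within the WT range, at a log2 fold change of 0.15 (SE 0.09) between the means. Within WT, the mice with Y-linked transcripts were below those with Xist, whereas in KO mouse 2 lay with mice 3 and 4.

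Efnb2 (ENSMUSG00000001300, chromosome 8, 8617434 to 8661242, minus strand), a second transmembrane ligand that also marks arterial endothelium, spread more widely. Efnb2 overlaps E230020D15Rik, Gm45073 and Gm45074 on the same strand, over 5899, 4247 and 1240 bases (0 to 35 counts for these). It had 8.94, 6.34, 7.37 and 7.34 FPKM in WT mice 1 to 4 and 6.51, 9.59, 10.1 and 8.42 in KO mice 1 to 4. KO mouse 1 was near the bottom of the WT range, and KO mice 2 and 3 were above every WT mouse, with a log2 fold change of 0.20 (SE 0.15). It was 0.11 without KO mouse 3, 0.12 without WT mouse 2, 0.29 without WT mouse 1 and 0.31 without KO mouse 1. Endothelial markers were near 0 in these libraries. The 6 of them summed to 0.570 to 1.56 FPKM in WT and 0.619 to 0.990 in KO, and the highest of them in any mouse was 0.532.

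The balance of the EphB receptors with Efnb1 was expressed as log2 of the summed Ephb2 and Ephb3 FPKM over Efnb1 FPKM in each mouse. It was -0.34, -0.42, -0.73 and -0.58 in WT mice 1 to 4 and -0.65, -0.99, -0.78 and -0.88 in KO mice 1 to 4. The mean was -0.52 ± 0.174 in WT and -0.82 ± 0.146 in KO (SD, n = 4 each). The difference of -0.31 was larger than either SD, but WT mouse 3 lay below KO mouse 1, so the genotypes overlapped. Each KO mouse had a lower balance than the WT mouse of its number. Rescaled to the shortest CCDS transcripts, the balance turned positive, with 0.54 ± 0.161 in WT and 0.25 ± 0.127 in KO, while the difference was -0.28 and the genotypes again overlapped.

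Epha2 (ENSMUSG00000006445, chromosome 4, 141301240 to 141329384, plus strand), an epithelial receptor for ephrin-A ligands, had the largest positive difference of the 10 genes. Its counts were 908, 810, 1168 and 1157 in WT mice 1 to 4 and 1795, 1609, 2172 and 3039 in KO mice 1 to 4. In FPKM it was 8.85, 8.04, 12.2 and 10.3 in WT and 16.1, 13.3, 20.02 and 21.6 in KO, in the same order. Every KO mouse was above every WT mouse, with KO mouse 2 and WT mouse 3 the nearest to each other. The KO to WT ratio of same-numbered mice in CPM was 1.80, 1.65, 1.65 and 2.09. The log2 fold change was 0.85 (SE 0.17), a ratio of 1.80, and it was 0.80 in the mice with Y-linked transcripts and 0.88 in those with Xist.

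Among the 16109 genes tested, Epha2 ranked 26 by p-value and 690 by absolute log2 fold change. Its adjusted p was 0.429 in edgeR's quasi-likelihood test, 0.00225 with DESeq2 and 0.0360 in edgeR with the Xist or Y group as a covariate, and it ranged from 0.00225 to 0.952 over all alternatives. The log2 fold change itself ranged only from 0.74 to 0.97.

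Villus enterocyte markers were also higher in KO and are given beside Epha2 for that reason. They summed to 832, 638, 1040 and 2110 FPKM in WT mice 1 to 4 and 970, 1380, 4550 and 2530 in KO mice 1 to 4. KO mice 3 and 4 had the 2 highest sums and the 2 highest Epha2 levels, while WT mouse 4 had a larger sum than KO mice 1 and 2 and a lower Epha2 level. T cell markers summed to 5.08, 4.02, 5.66 and 12.5 FPKM in WT and 7.80, 12.3, 27.3 and 22.4 in KO, again highest in KO mice 3 and 4. The parts of enterocyte and T cell content in the Epha2 difference were not tested.

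Epha1 (ENSMUSG00000029859, chromosome 6, 42358487 to 42373268, minus strand), an epithelial EphA receptor, was high in KO mice 3 and 4 only. It had 10.6, 8.54, 11.7 and 12.1 FPKM in WT mice 1 to 4 and 9.74, 10.1, 19.7 and 15.8 in KO mice 1 to 4. The coefficient of variation was 14.7% in WT and 34.8% in KO. Epha1 overlaps Zyx over 1727 bases on the opposite strand (966 to 1914 counts for Zyx), and whether the counting used strand is not given in the sources used here. On the log2 scale the fold change was 0.36 (SE 0.23), or 0.14 without KO mouse 3, with 0.046 in the mice with Y-linked transcripts and 0.56 in those with Xist, and the difference between these was not tested. The mice with the 3 highest villus enterocyte sums, KO 3, KO 4 and WT 4, had the 3 highest Epha1 levels in the same order. KO 2 had the fourth highest sum and 10.1 FPKM of Epha1, below WT 1 and WT 3. The part of enterocyte content in the Epha1 difference was not tested.

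**Figure D3:**
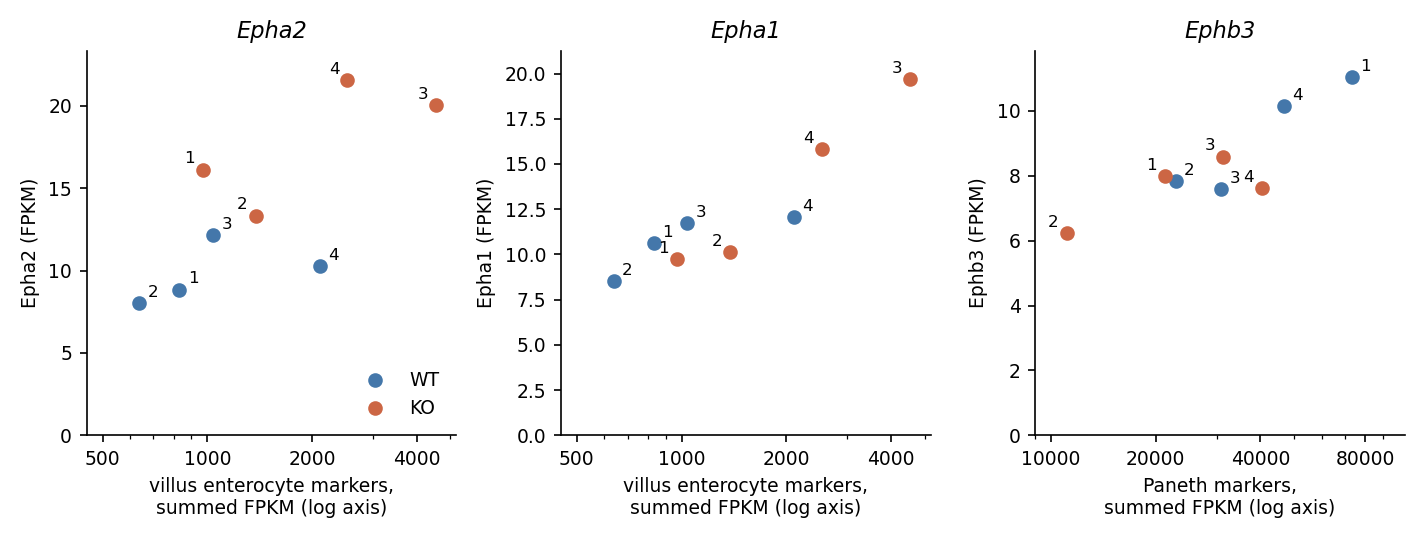
Level of Epha2 and Epha1 against the summed FPKM of 6 villus enterocyte markers, and of Ephb3 against that of 6 Paneth markers (log horizontal axes), with mouse numbers beside the points (WT blue, KO orange). The highest Epha1 value lay at the highest enterocyte sum (KO 3) and the highest Ephb3 value at the highest Paneth sum (WT 1), while KO 4 had the third highest Paneth sum and 7.63 FPKM of Ephb3. The part of cell content was not tested.

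Epha4 (ENSMUSG00000026235, chromosome 1, 77367185 to 77515088, minus strand), a receptor that binds both ephrin classes, had 1.28, 1.12, 0.859 and 1.04 FPKM in WT mice 1 to 4 and 1.11, 1.85, 1.29 and 1.13 in KO mice 1 to 4. KO mouse 2 was the highest and the other 7 mice lay close together. With KO over WT at a log2 fold change of 0.31 (SE 0.20), the value was 0.13 without KO mouse 2 and 0.17 with limma on log2(FPKM + 1).

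Epha7 (ENSMUSG00000028289, chromosome 4, 28813131 to 28967499, plus strand), an EphA receptor best known from the developing nervous system, was counted at 46, 25, 21 and 23 reads in WT mice 1 to 4 and 13, 11, 9 and 36 in KO mice 1 to 4. KO mice 1 to 3 were below every WT mouse, and KO mouse 4 was above WT mice 2 to 4. The log2 fold change was -1.02 (SE 0.43). It was -1.54 when KO mouse 4 was left out and -0.70 when WT mouse 1 was left out. It was -1.75 in the mice with Y-linked transcripts and -0.30 in those with Xist, and the difference between these was not tested.

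Ephb4 (ENSMUSG00000029710, chromosome 5, 137350109 to 137378669, plus strand), the receptor of Efnb2 and known for its role in veins, was the only one of the 10 genes with every KO mouse below every WT mouse. It shares 33 bases with Zan on the opposite strand. Its counts were 5307, 5114, 5459 and 6011 in WT mice 1 to 4 and 5478, 5407, 4741 and 6870 in KO mice 1 to 4. In FPKM it was 52.1, 51.1, 57.3 and 53.7 in WT and 49.6, 45.1, 44.0 and 49.1 in KO. The gap between the genotypes, from 51.1 to 49.6 FPKM, was small. The log2 fold change was -0.20 (SE 0.071), a ratio of 0.872, with coefficients of variation of 4.73% in WT and 5.82% in KO. The low endothelial sums given above hold for Ephb4 as well, which was measured at 44.0 FPKM or more in every mouse.

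Ephb6 (ENSMUSG00000029869, chromosome 6, 41605482 to 41620509, plus strand), a receptor whose kinase domain is inactive, had 3, 4, 15 and 14 counts in WT mice 1 to 4 and 2, 6, 8 and 8 in KO mice 1 to 4. It did not pass the filter on low counts and was not tested. In both genotypes mice 3 and 4 had more counts than mice 1 and 2.

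Of the 10 genes, 9 were tested, with 5 higher and 4 lower in KO, and their median log2 fold change was 0.15 against -0.016 over all genes tested. None had an adjusted p under 0.05 in edgeR, where 0.00621% of all genes did, while Epha2 did with DESeq2, where 0.578% of all genes did, and with the Xist or Y group as a covariate, where 0.0248% did. At an unadjusted p under 0.05 there were 3 of 9 (Epha2 higher, Ephb4 and Epha7 lower), where 8.38% of all genes were, 5.33% higher and 3.05% lower. DESeq2 gave the same 3 genes, where 9.09% of all genes were at that threshold. With the Xist or Y group as a covariate, where 11.3% were, the 3 genes were Epha2, Ephb4 and Epha1, and Epha7 was not among them. The edgeR count was 5 without KO mouse 1, when Efnb1, Efnb2 and Epha1 joined Epha2 and Ephb4 and 13.0% of all genes were at that threshold. It was 1, Epha2, without KO mouse 2 (7.73% of all genes) or without KO mouse 3 (5.16%). The genotypes did not overlap in 2 of 9 (Epha2 and Ephb4), where 4.05% of all genes did not, 2.17% with KO above and 1.87% with KO below. These genes were chosen on this comparison, so nothing follows from the counts about the family.

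**Figure D4:**
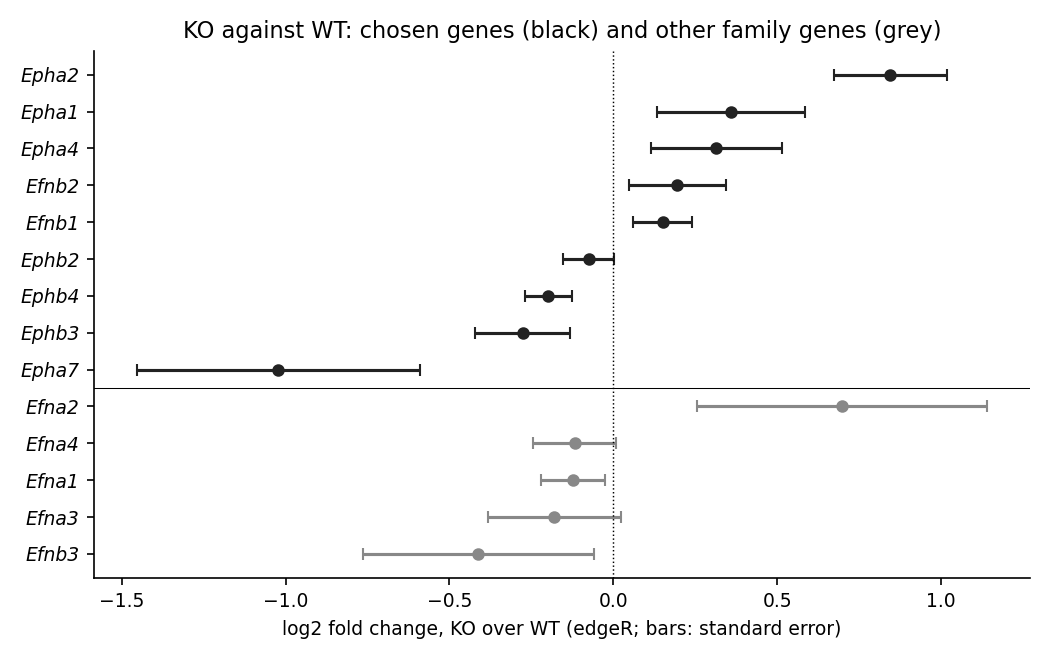
Log2 fold change of KO over WT with its standard error from edgeR (4 mice each), for the 9 tested genes described above (black) and the 5 other family genes that passed the filter (grey). Epha2 (0.85) and Epha7 (-1.02) lie farthest from 0, and the error of Epha7 is the larger.

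No fold change of the 9 genes turned its direction in any of the alternative fits, 15 for each gene and 13 for Epha7, which leaves the table under the stricter filters. Epha2 had an unadjusted p under 0.05 in 15 of 15 alternatives, Ephb4 in 12 of 15 and Epha7 in 7 of 13.

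**Figure D5:**
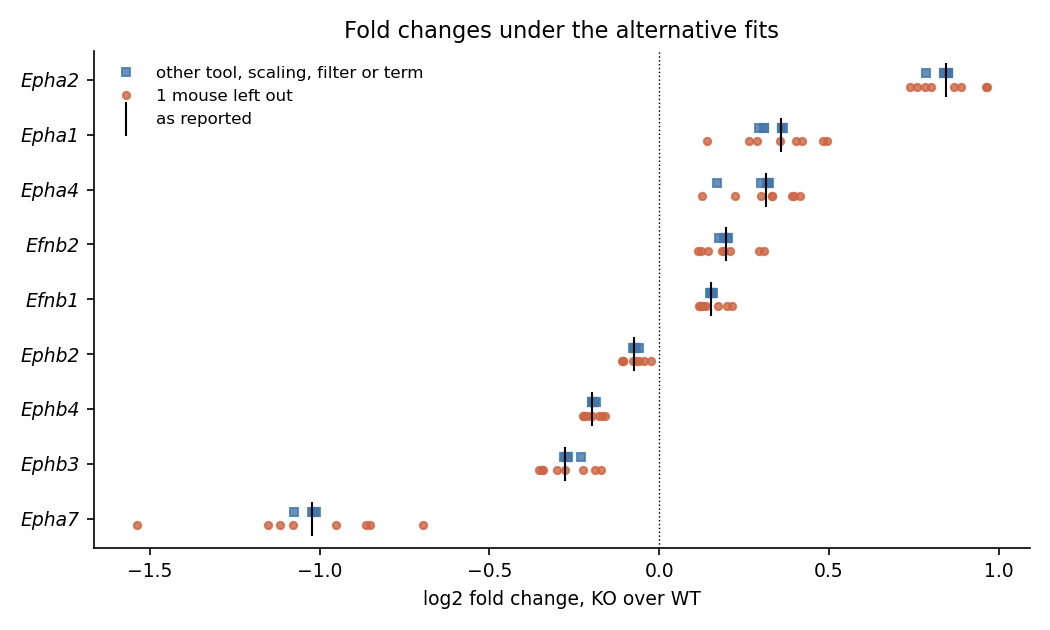
Log2 fold changes of the 9 tested genes as reported (bars) and under alternative fits, with another tool, scaling, filter or model term (squares) or with 1 mouse left out (circles). Every value stayed on the side of 0 reported, and Epha7 spread from -1.54 to -0.70.

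The rest of the family was read as a list of 12 genes, of which 5 passed the filter. Efna1, a ligand of Epha2 and Epha1, was the most abundant of these, with 28.6, 24.4, 28.6 and 26.1 FPKM in WT mice 1 to 4 and 23.4, 23.5, 29.4 and 23.4 in KO mice 1 to 4. KO mouse 3 was the highest of all mice, the other KO mice were below every WT mouse, and the log2 fold change was -0.12 (SE 0.097), or -0.21 without KO mouse 3. Of the other ephrins, the log2 fold change was -0.12 (SE 0.13) for Efna4, -0.18 (SE 0.20) for Efna3, -0.41 (SE 0.35) for Efnb3 and 0.70 (SE 0.44) for Efna2, which had only 10 to 61 counts. These moved with single mice. Efna4 was at -0.034 without WT mouse 4, -0.037 without KO mouse 2 and -0.18 without WT mouse 1. Efna3 was at -0.013 without KO mouse 2 and -0.31 without KO mouse 3. Efnb3 was at -0.18 without WT mouse 1, -0.26 without WT mouse 2 and -0.62 without KO mouse 2, and Efna2 at 0.41 without KO mouse 1 and 0.43 without WT mouse 4. With limma on log2(FPKM + 1), a scale that understates changes of low genes, Efnb3 was at -0.17 and Efna2 at 0.26. The genotypes overlapped in all 5, and none had an unadjusted p under 0.05 (8.38% of all genes), although Efna1 did when KO mouse 3 was left out. Efna5, Epha10, Ephb1, Epha3, Epha8, Epha5 and Epha6 did not pass the filter.

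Proteins that carry or end the Eph signal were read from a list of 42 genes, among them SRC family kinases, adaptors and the sheddase Adam10. Of the 40 tested, 25 were higher and 15 lower in KO. Their median log2 fold change was 0.032, against -0.016 over all genes. Only Pak1, a kinase activated by Rac1 and Cdc42, had an unadjusted p under 0.05 (8.38% of all genes), and none an adjusted one (0.00621%). Pak1 had 62.8, 67.7, 71.2 and 74.4 CPM in WT mice 1 to 4 and 74.3, 77.5, 80.9 and 80.3 in KO mice 1 to 4. The genotypes overlapped only in that KO mouse 1 was level with WT mouse 4, and the log2 fold change was 0.18 (SE 0.07). The genotypes did not overlap in 1 of the 40 (4.05% of all genes), the GTPase Rac1, with 258.4 to 278.4 CPM in WT and 281.2 to 297.8 in KO. The unadjusted count of the list was unstable. Blocking by replicate number gave 2 (Pak1 and Cdc42), where 11.3% of all genes were at that threshold. It was 5 without KO mouse 1 (13.0% of all genes), 3 without WT mouse 4 (9.02%), and 0 without WT mouse 1 (6.72%), KO mouse 3 (5.16%) or KO mouse 4 (6.16%). Without WT mouse 2 it was 1 (7.75%), which was Cdc42 and not Pak1.

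The MEX3A recognition element, 2 short conserved blocks up to 8 bases apart to which the protein is known to bind, was looked for in the 3'UTR of each gene, taking its longest coding transcript. It was found in 74.1% of the 12992 tested genes with a 3'UTR, with a median of 2 matches per gene and 2.39 per kilobase, and at 1.92 per kilobase over the 10 genes. Epha7 held 12 matches, Epha4 10, Ephb2 9, Efnb2 7, Epha1 2, and Epha2 and Ephb6 1 each. Efnb1, Ephb3 and Ephb4 held none. The sites of Epha2 and of the proximal part of Ephb2 are printed with the conserved blocks in capitals, since the former belongs to the gene with the largest positive difference and the latter lies where the Ephb2 transcripts part.
Epha2, bases 548 to 558 of a 3'UTR of 866 bases (chr4:141329066-141329076, plus strand): TGAGgttTTTA
Ephb2, bases 1703 to 1711 of a 3'UTR of 7783 bases (chr4:136653611-136653619, minus strand): TTAGtTATA
The shorter CCDS transcript of Ephb2 ends at 136653608 and holds this element alone, and the other 8 lay farther downstream, in the longer one. Of the 4 genes that were lower in KO, Ephb2 and Epha7 held 9 and 12 matches, and Ephb3 and Ephb4 held 0. Of the 5 that were higher, Epha4, Efnb2, Epha1, Epha2 and Efnb1 held 10, 7, 2, 1 and 0. A link of matches with direction was not tested.

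The genes most like Ephb2, Ephb3 and Efnb1 in their variation between mice were read as the highest Pearson correlations of log2 CPM, as deviations from the genotype means over 8 mice, among 9504 protein-coding genes. For Ephb2 these were Cldn15 (0.97), Pde6d (0.97), Tmem176a (0.95), Tmco6 (0.94) and Psme4 (0.94). For Ephb3 they were Stra6l (0.98), Cep68 (0.98), Zfp787 (0.97), Il17rd (0.96) and Hpgd (0.96). For Efnb1 they were Tm9sf2 (0.99), Vps8 (0.97), Mcm9 (0.97), Shank2 (0.97) and Vasp (0.96). The 3 groups shared no gene. The points are mice that share a library, its depth and its cell composition, and the highest of 9504 correlations over 8 mice are high by selection.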

How the data were processed

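RNA of crypts, released with EDTA from the intestines of 4 WT and 4 KO mice, was sequenced with 1 library per mouse. Read counts per gene were deposited by the authors without normalization. FPKM, scaled by gene length and by depth, were deposited for the same genes. The submitters' processing notes name CASAVA, HISAT2 2.0.5 and featureCounts 1.5.0-p3 without their roles, and the strand setting is not given in the sources used here. The coordinates of all 10 genes equal those of GENCODE M21 on GRCm38. Deposited fold changes and p-values of the authors' own comparison and their group means were not used.

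The members and gene lists were chosen with earlier results of these data known. KO and WT were compared with edgeR 4.0.16 in R 4.3.3 (filterByExpr with a minimum count of 10, TMM, quasi-likelihood test, genotype as the only term, all 8 mice), with Benjamini-Hochberg adjustment over 16109 genes and a threshold of 0.05. The standard error (SE) of the log2 fold change was derived from the fold change and the F statistic of that test. The alternatives were DESeq2 1.42.0, RLE factors, no filter, at least 10 counts in every mouse, limma 3.58.1 on log2(FPKM + 1) for genes with a mean FPKM of at least 0.5, the replicate number as a block, the Xist or Y group as a covariate, and leaving out each mouse. The script was tested on simulated data. The named genes were Mex3a, the 10 genes, family genes that passed the filter, signalling partners at an unadjusted p under 0.05, the 5 genes most like Ephb2, Ephb3 and Efnb1 (mean log2 CPM from 3 up), and cell type markers. Rac1 was named after its values were seen, as were genes that joined a count under an alternative.

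Same-numbered mice deviated together from their genotype means (correlation 0.127, 0.492, 0.145 and 0.288 over all genes in pairs 1 to 4), which met the criterion for pairing, although no source says that a number marks a litter. All values are from the fit without pairing unless the block is named. Over autosomal genes pairs 1 to 4 were at 0.0824, 0.469, 0.0926 and 0.243. Libraries within a genotype differed beyond sampling noise.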

Additional observations from a re-analysis of the deposited data

Results flagged for a closer look

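Values that stood apart within a genotype were looked for with Dixon's test at its 95% critical value in 32 groups, of which chance alone would pick out 1.6, and 3 were found. Efnb1 in KO mouse 1 was the lowest of the KO mice, with a gap of 0.849 of the range. Efna1 in KO mouse 3 was the highest of the KO mice, with a gap of 0.968 of the range. Efna4 in KO mouse 2 was the lowest of the KO mice, with a gap of 0.850 of the range. The 3 values came from 3 different mice.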

How the results depend on the processing

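The number of the 10 genes with an adjusted p under 0.05 was 0 in edgeR, 1 with DESeq2 and 1 with the Xist or Y covariate (Epha2 in both), and 0 in every fit without 1 mouse (lowest 0, highest 0). The number at an unadjusted p under 0.05 was 1 to 5 without 1 mouse. The other family genes gave 0 to 1, the latter without KO mouse 3. The signalling partners gave 2 with the replicate number as a block, 2 with the Xist or Y covariate (Pak1 and Kalrn), where 11.3% of all genes were called in either fit, and 0 to 5 without 1 mouse. The block changed no other call of these genes, with an adjusted p of 0.126 for Epha2, but did for Mex3a (0.126). Without 1 mouse, Mex3a had an adjusted p of 0.151, 0.214 and 0.0857 (WT mice 1, 3 and 4) and of 0.152, 0.0770 and 0.0748 (KO mice 1, 3 and 4), and the log2 fold change over all 8 such fits was -4.88 to -4.18. The non-overlap count was 2 to 3, with 3 without KO mouse 1 (12.4% of all genes) or KO mouse 4 (5.96%), and the difference in receptor to ligand balance -0.38 to -0.25. Fits within the Y-linked or Xist mice, non-overlap under other scalings or without 1 mouse, and the rescaled balance were chosen after seeing the data. The alternative fits of Mex3a, Efna1, Efna2, Efna3, Efna4, Efnb3 and Pak1 as single genes were not planned in advance. No direction was reversed among the 16 genes refitted (the 9 tested members, Mex3a, 5 other family genes and Pak1). Low counts limit Epha7, Ephb6, Efna2 and Efnb3.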
